A study of Bos taurus with 96 samples.

Results

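The circadian clock genes considered here were the members of the core feedback loop and its first output: ARNTL (also called BMAL1), CLOCK, PER1, PER2, PER3, CRY1, CRY2, NR1D1 (REV-ERB alpha), NR1D2 and DBP. They were chosen by name, from what the genes are known to do, and not by their values. Of these 10 genes, 5 had a probe that could be tied to the gene, namely ARNTL, PER2, CRY1, NR1D1 and DBP, out of 10653 named genes on the array. CLOCK, PER1, PER3, CRY2 and NR1D2 were not analysed here.

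The 5 genes were carried by 10 probes: 1 for ARNTL, 3 for PER2 and 2 each for CRY1, NR1D1 and DBP. The brightest probe of each gene is described throughout, and all 5 brightest probes were well above background on 96 of 96 arrays. Values are log2 signals relative to the 75th percentile of their own array, so that 0 is the level of that percentile, and a level of 1 probe cannot be set against that of another. Differences are in log2 units with their standard error (SE), levels are given with their SD, and a call means an adjusted p under 0.05 in limma over all 34227 probes tested.

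The study set the fat depots of beef cattle against each other and against muscle, in Angus, Hereford and Wagyu x Angus steers. The labels give 259 days in a feedlot for all 96 samples, but only the steers of the kill that supplied the fat, 26 months old at slaughter, are given that period in the study's methods. Subcutaneous rump fat (SC), intramuscular or marbling fat (IMF), intermuscular, kidney and omental fat were each measured on 12 arrays, 4 per breed, all from animals labelled as raised on pasture after weaning. The longissimus dorsi (LD), a muscle of the back taken with its fat in place, was measured on 24 pasture arrays (8 per breed) and 12 arrays (4 per breed) from animals given a supplement after weaning. The fat came from steers of 1 kill, and the muscle from that kill and from an earlier one that held both diets, so that time of slaughter varies within LD and between LD and fat. The labels give neither the kill, the animal nor the hour of slaughter, and arrays of different depots share steers, so the p-values for breed over the fat arrays are too small.

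In the mammalian clock, ARNTL and CLOCK form a transcriptional activator that switches on the PER and CRY genes, whose proteins return to repress it. NR1D1 is a nuclear receptor that is switched on by the same activator and represses ARNTL in turn, and DBP is an output transcription factor driven directly by the activator. ARNTL transcript therefore normally peaks at an opposite time of day to NR1D1, DBP and PER2. Fat and muscle have clocks of their own, which feeding time and glucocorticoids can reset, and PER2 also responds directly to glucocorticoids.

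Array quality and tissue markers were as follows. Between 66.3% and 96.5% of probes were well above background on an array. The summed level of 11 skeletal muscle markers, none of them at background on every array of any tissue, lay between 11.8 and 12.6 in LD, between 9.96 and 11.5 in IMF, and between 0.49 and 1.34 in SC, with 1 intermuscular array at 9.69 and the kidney and omental arrays at or below 4.18. The summed level of 9 adipocyte markers lay between 9.42 and 10.1 in SC, between 7.88 and 9.41 in IMF and between 6.95 and 8.04 in LD. In such bulk tissue, fewer cells of a type and less RNA per cell cannot be told apart. Depot was also close to nested in scan day: 11 of 12 SC arrays were scanned on the first of 3 days, all 12 intermuscular arrays on the second and all 12 IMF arrays on the third.

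NR1D1 was highest in SC and lower in every other depot, by 9.15-fold in kidney fat, 5.17-fold in omental fat, 3.18-fold in intermuscular fat and 1.87-fold in IMF. DBP was also lower in all 4 depots than in SC, by 1.22-fold to 1.57-fold. CRY1 was higher in IMF than in SC by 1.92-fold and higher still in LD, while the depot means ran only from -1.72 to -1.22 for ARNTL and from -0.96 to -0.18 for PER2. An F test for any difference between depots over the 60 fat arrays called 4 of the 5 genes, against 87.2% of all probes. Its adjusted p was 4.04e-17 for NR1D1, 1.96e-12 for CRY1, 6.33e-06 for DBP, 0.00073 for ARNTL and 0.0544 for PER2.

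**Figure D1:**
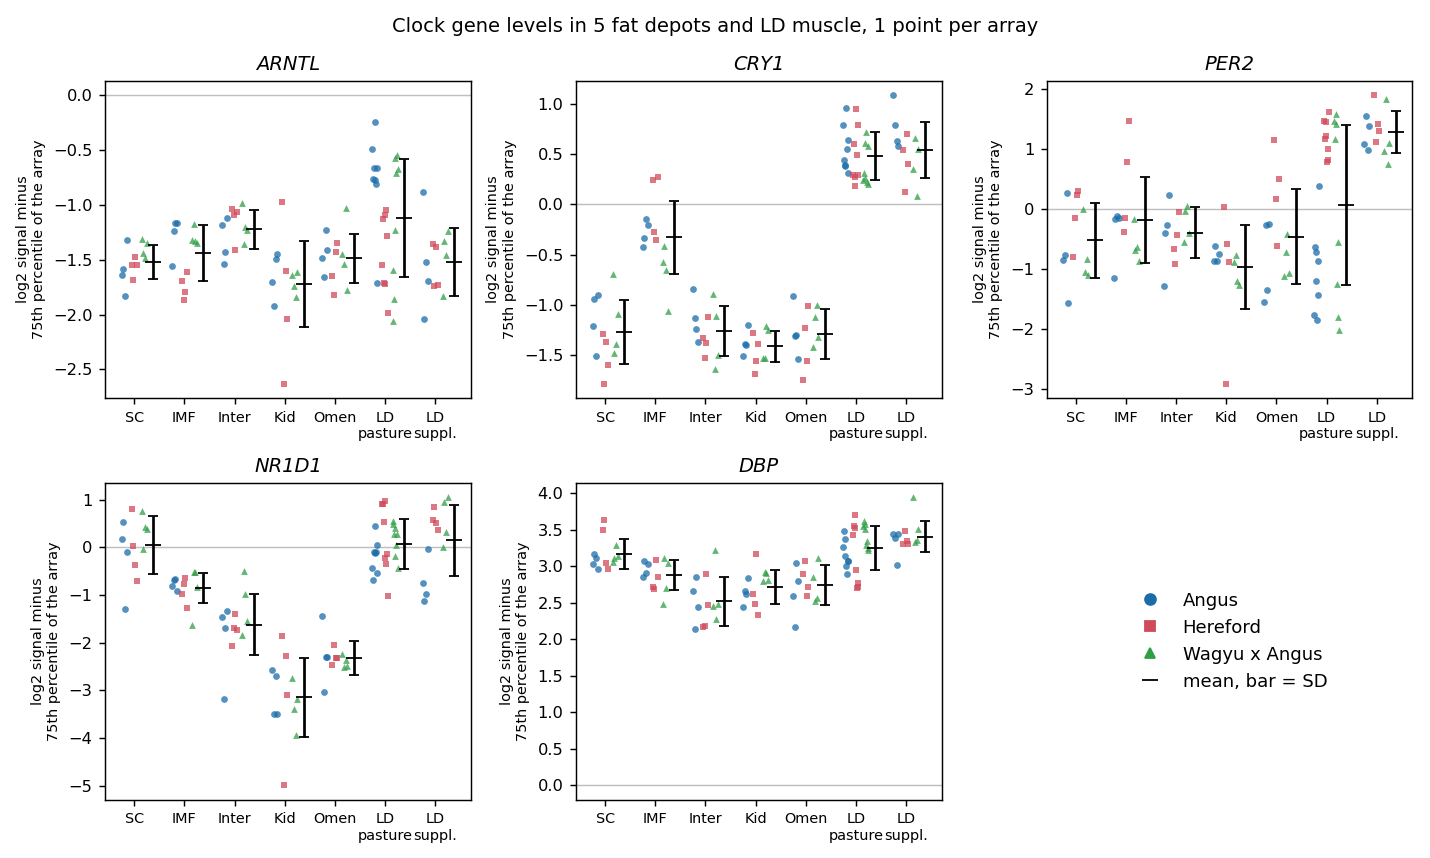
Level of each clock gene (log2 signal relative to the array's 75th percentile, y axis) in the 5 fat depots and in LD on pasture and supplement (x axis), with 1 point per array and the mean and SD beside the points. NR1D1 falls from SC, with a mean of 0.05, to kidney fat, with a mean of -3.14, and PER2 in LD on pasture spreads from -2.01 to 1.62.

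ARNTL, the activator, had its highest mean among the fat depots in intermuscular fat. Its level in SC was lowest at -1.83, with a median of -1.51 and a highest value of -1.31. In intermuscular fat it ran from -1.54 through a median of -1.19 to -0.98, so that the groups overlapped although their means differed by 0.30 ± 0.07 (adjusted p = 0.0017). In kidney fat it ran more widely, from -2.63 through -1.67 to -0.97. Intermuscular fat was the only fat depot in which ARNTL differed from SC: the difference was 0.08 ± 0.09 in IMF (adjusted p = 0.458), -0.20 ± 0.12 in kidney fat (adjusted p = 0.19) and 0.03 in omental fat (adjusted p = 0.804). With scan day as a block over the 96 arrays the intermuscular difference was 0.03 (adjusted p = 0.911), and the IMF and omental differences were each -0.46 (adjusted p = 0.0194 and 0.0225). That fit, here and for the tissue differences below, takes the day effect from tissues scanned on several days, above all LD. In LD the slides are nested in scan days. In order of mean level, LD on pasture (-1.12) stood above intermuscular fat (-1.22), IMF (-1.44), omental fat (-1.49), SC (-1.52) and kidney fat (-1.72), and of the neighbours in that order only intermuscular fat and IMF differed (adjusted p = 0.0461). Farther apart in the order, intermuscular fat exceeded kidney fat by 0.50 ± 0.12 (adjusted p = 0.0112) and omental fat by 0.27 ± 0.09 (adjusted p = 0.0426). LD on pasture exceeded SC by 0.40 ± 0.16 (adjusted p = 0.0191), omental fat by 0.37 ± 0.16 (adjusted p = 0.0328) and kidney fat by 0.60 ± 0.17 (adjusted p = 0.00184), and the difference from SC was 0.15 with scan day as a block (adjusted p = 0.277).

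PER2, a repressor of the loop, differed from SC in none of the other depots. Its level ran from -1.56 through a median of -0.78 to 0.31 in SC, from -1.14 through -0.17 to 1.48 in IMF, and from -1.28 through -0.39 to 0.23 in intermuscular fat. In kidney fat the lowest, median and highest values were -2.91, -0.87 and 0.03, and in omental fat -1.54, -0.51 and 1.15. Within each depot the arrays were thus spread more widely for PER2 than for ARNTL, with an SD of 0.43 to 0.79 against 0.16 to 0.39. No pair of neighbours in the order of mean levels, LD on pasture, IMF, intermuscular fat, omental fat, SC and kidney fat, was called, with adjusted p from 0.177 to 0.88. Of the pairs farther apart, 2 were called, both against kidney fat: IMF exceeded it by 0.78 ± 0.27 (adjusted p = 0.0186) and LD on pasture by 1.03 ± 0.40 (adjusted p = 0.0187). The largest difference from SC among the fat depots was -0.44 ± 0.26 in kidney fat (adjusted p = 0.177). With scan day as a block over the 96 arrays PER2 was higher than in SC by 1.67 in IMF (adjusted p = 0.000341) and by 1.25 in omental fat (adjusted p = 0.00935). That fit draws on LD for the day effect. There the PER2 slide means were 1.16 to 1.44 on the first day and -1.40 and -0.94 on the third. The part of the LD slides in these differences was not tested.

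CRY1, the partner of the PER proteins in repression, was highest in LD and next highest in IMF. In SC it ran from -1.78 through a median of -1.33 to -0.69, in IMF from -1.06 through -0.34 to 0.27, and in LD on pasture from 0.18 through 0.42 to 0.96. SC and LD did not overlap, as for 39.1% of all probes, while IMF lay between them and overlapped both. The difference from SC was 0.94 ± 0.14 in IMF (adjusted p = 1.93e-06) and 1.75 ± 0.09 in LD (adjusted p = 2.74e-19), and LD exceeded IMF by 0.80 ± 0.10 (adjusted p = 5.73e-09). The other probe of CRY1 was higher in IMF too, by 0.51 (adjusted p = 0.00665), and in LD by 1.85 (adjusted p = 1.43e-18). In intermuscular, kidney and omental fat, CRY1 had means of -1.26, -1.41 and -1.29 beside -1.27 in SC, and none of these differences was called, although the other probe was lower in kidney fat than in SC, with a difference of -0.30 (adjusted p = 0.048). All 11 skeletal muscle markers rose with CRY1 from SC to IMF, with a median difference of 11.2, and 8 of the 9 adipocyte markers fell. The intermuscular arrays with the highest muscle marker sums, 9.69 and 6.29, had CRY1 levels of -1.11 and -0.89, and the array with the lowest sum, 0.61, had the highest CRY1 level of that depot, -0.84. The part of muscle content in the CRY1 difference was not tested.

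NR1D1, the repressor of ARNTL, had the widest range. Its lowest, median and highest levels were -1.30, 0.10 and 0.80 in SC, -1.64, -0.80 and -0.52 in IMF, and -3.18, -1.62 and -0.49 in intermuscular fat. In omental fat they were -3.04, -2.32 and -1.45 and in kidney fat -4.99, -3.14 and -1.85. Every kidney and omental array thus lay below every SC array, where 3.52% and 4% of all probes did not overlap with SC in either direction, whereas IMF and intermuscular fat each overlapped SC. The difference from SC was -0.91 ± 0.19 in IMF (adjusted p = 0.000249), -1.67 ± 0.25 in intermuscular fat (adjusted p = 7.21e-06), -3.19 ± 0.28 in kidney fat (adjusted p = 8.18e-09) and -2.37 ± 0.20 in omental fat (adjusted p = 2.53e-09). In the order SC, IMF, intermuscular, omental and kidney fat, each neighbour differed from the next (adjusted p from 0.000249 to 0.0322). LD on pasture, with a mean of 0.06, did not differ from SC, with a mean of 0.05 (adjusted p = 0.957).

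The other probe of NR1D1 was dimmer and well above background on 95 of 96 arrays. It was also lower than in SC in 3 depots, with differences of -0.58 in intermuscular fat (adjusted p = 0.00987), -0.97 in kidney fat (adjusted p = 0.00224) and -0.90 in omental fat (adjusted p = 0.000517). The probes disagreed on IMF, where it stood 0.44 above SC (adjusted p = 0.0615), and on LD, where it stood 1.26 above SC (adjusted p = 6.47e-08). Both probes placed LD above IMF, by 0.92 ± 0.16 (adjusted p = 3.93e-06) and 0.82 (adjusted p = 6.88e-05). In LD the brighter probe was higher on the first scan day, on which 11 of the 12 SC arrays were scanned. With scan day as a block over the 96 arrays it differed from SC by -0.56 in IMF (adjusted p = 0.117), -1.16 in intermuscular fat (adjusted p = 0.000697), -2.92 in kidney fat (adjusted p = 3.66e-17) and -2.0 in omental fat (adjusted p = 4.13e-08). Beside NR1D1, the summed mesothelium markers ran from 3.56 to 4.45 in SC, 2.68 to 3.67 in kidney fat and 2.74 to 4.65 in omental fat, and the summed macrophage markers from 3.46 to 5.11, 3.11 to 7.02 and 3.12 to 4.71. Their part in the NR1D1 difference was not tested. For kidney fat, 5 arrays shared the first scan day with 11 SC arrays, and within that day the difference was -3.69 ± 0.35 (adjusted p = 6.09e-06).

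DBP, the output gene, was lower in each of the other fat depots than in SC. It ran from 2.96 through a median of 3.12 to 3.63 in SC, from 2.49 through 2.88 to 3.11 in IMF, and from 2.14 through 2.46 to 3.23 in intermuscular fat. In kidney fat the lowest, median and highest levels were 2.33, 2.73 and 3.17, and in omental fat 2.17, 2.76 and 3.11. All 4 depots therefore overlapped SC while lying lower on average, with differences of -0.29 ± 0.09 in IMF (adjusted p = 0.00541), -0.65 ± 0.11 in intermuscular fat (adjusted p = 5.26e-05), -0.45 ± 0.09 in kidney fat (adjusted p = 0.000456) and -0.42 ± 0.10 in omental fat (adjusted p = 0.00132). The other DBP probe was also lower in intermuscular (-0.57, adjusted p = 0.00955), kidney (-0.95, adjusted p = 0.000882) and omental fat (-0.44, adjusted p = 0.0449), and stood at -0.30 in IMF (adjusted p = 0.115). With scan day as a block the differences were -0.10 in IMF (adjusted p = 0.566) and -0.22 in omental fat (adjusted p = 0.193). Among neighbours in the order LD on pasture, SC, IMF, omental, kidney and intermuscular fat, only SC and IMF differed. DBP was higher in LD on pasture than in IMF by 0.37 ± 0.10 (adjusted p = 0.000825), but under quantile normalisation this difference was -0.03 (adjusted p = 0.733), and its difference between LD and SC changed from 0.08 (adjusted p = 0.437) to -0.34 (adjusted p = 0.000403).

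Counted by comparison, 3 of the 5 genes were called between IMF and SC (64.2% of all probes), 3 between intermuscular fat and SC (48.8%), 2 between kidney fat and SC (41.7%) and 2 between omental fat and SC (45.8%). Between LD on pasture and IMF 3 of 5 were called (75.3%) and between LD on pasture and SC 2 of 5 (82.9%). In fat each of these counts lies near the share of all probes, and the comparisons share their SC arrays.

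**Figure D2:**
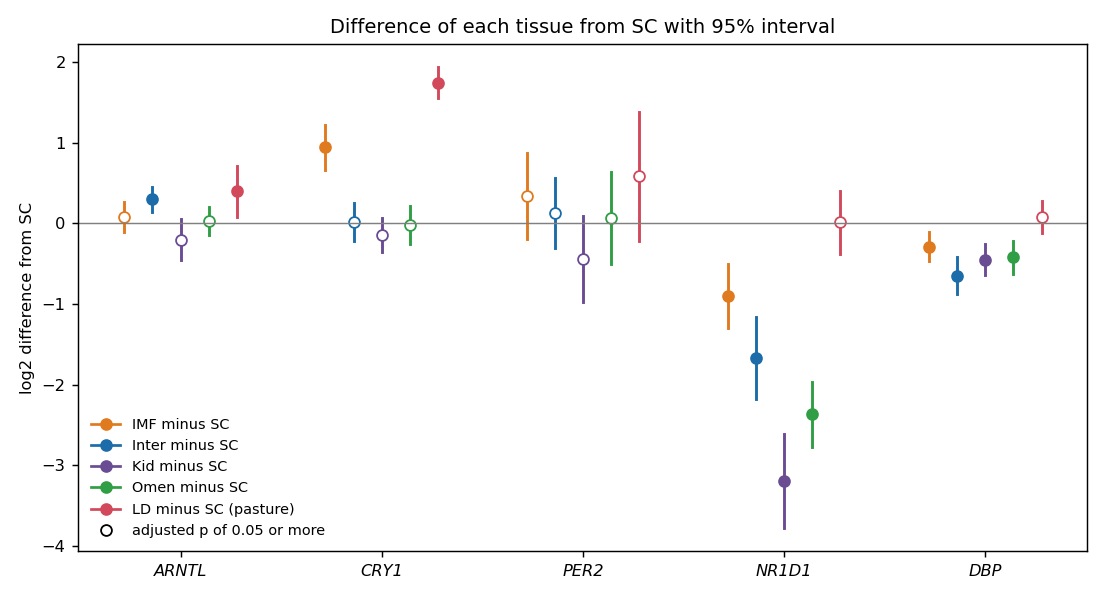
Difference of each clock gene from SC (log2, y axis) in the other fat depots and in LD on pasture, by gene (x axis), with bars for the 95% confidence interval and filled points for an adjusted p under 0.05. NR1D1 in kidney fat, at -3.19, is the lowest point and CRY1 in LD, at 1.75, the highest.

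Over the 60 fat arrays none of the 5 genes was called in the F test between breeds, which called 3.19% of all probes. The adjusted p was 0.229 for PER2, 0.47 for ARNTL, 0.702 for CRY1, 0.857 for NR1D1 and 0.859 for DBP. PER2 had means of -0.63 (SD 0.55) in Angus, -0.19 (SD 0.92) in Hereford and -0.68 (SD 0.41) in Wagyu x Angus, with n = 20 arrays each. Hereford stood highest in IMF, at 0.44 beside -0.40 in Angus and -0.59 in Wagyu x Angus, and in omental fat, at 0.30 beside -0.85 and -0.83, and in SC, at -0.10 beside -0.72 and -0.74 (n = 4 arrays each). It stood lowest in intermuscular fat, at -0.51 beside -0.43 and -0.23, and in kidney fat, at -1.08 beside -0.77 and -1.03. The lowest Hereford value, -2.91, came from 1 kidney fat array, which also held the lowest fat values of ARNTL (-2.63) and NR1D1 (-4.99). Without that array the adjusted p for PER2 between breeds was 0.0303, so that the lack of a call for PER2 depends on it. A difference of depot effects between breeds was not called for any probe by limma, with 2518 of 34227 probes at an unadjusted p under 0.05 and, at the same adjusted threshold, 5 called under normexp background correction and 2 with all non-control probes. Across the settings tried the adjusted p of the 5 genes was at least 0.33.

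In LD, PER2 separated by slide. The 12 supplement arrays were all high: 1.09, 1.56, 0.99 and 1.39 in Angus, 1.90, 1.13, 1.43 and 1.30 in Hereford, and 0.97, 1.84, 0.75 and 1.10 in Wagyu x Angus, each breed on 1 slide. The Angus pasture arrays were almost all low, at -1.76, -0.63, -0.71 and -1.20 on slide 2 and at -1.85, -0.87, -1.43 and 0.39 on slide 23. The Hereford pasture arrays were all high, at 1.48, 1.17 and 1.22 on slide 13, 1.46 on slide 14, and 0.79, 0.82, 1.0 and 1.62 on slide 24. Wagyu x Angus on pasture was split, with 1.47 on slide 13 and 1.17, 1.42 and 1.59 on slide 14 against -1.24, -1.80, -0.55 and -2.01 on slide 20. Thus 11 of 24 pasture arrays and 0 of 12 supplement arrays were below 0, and all 11 were on slides 2, 20 and 23.

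**Figure D3:**
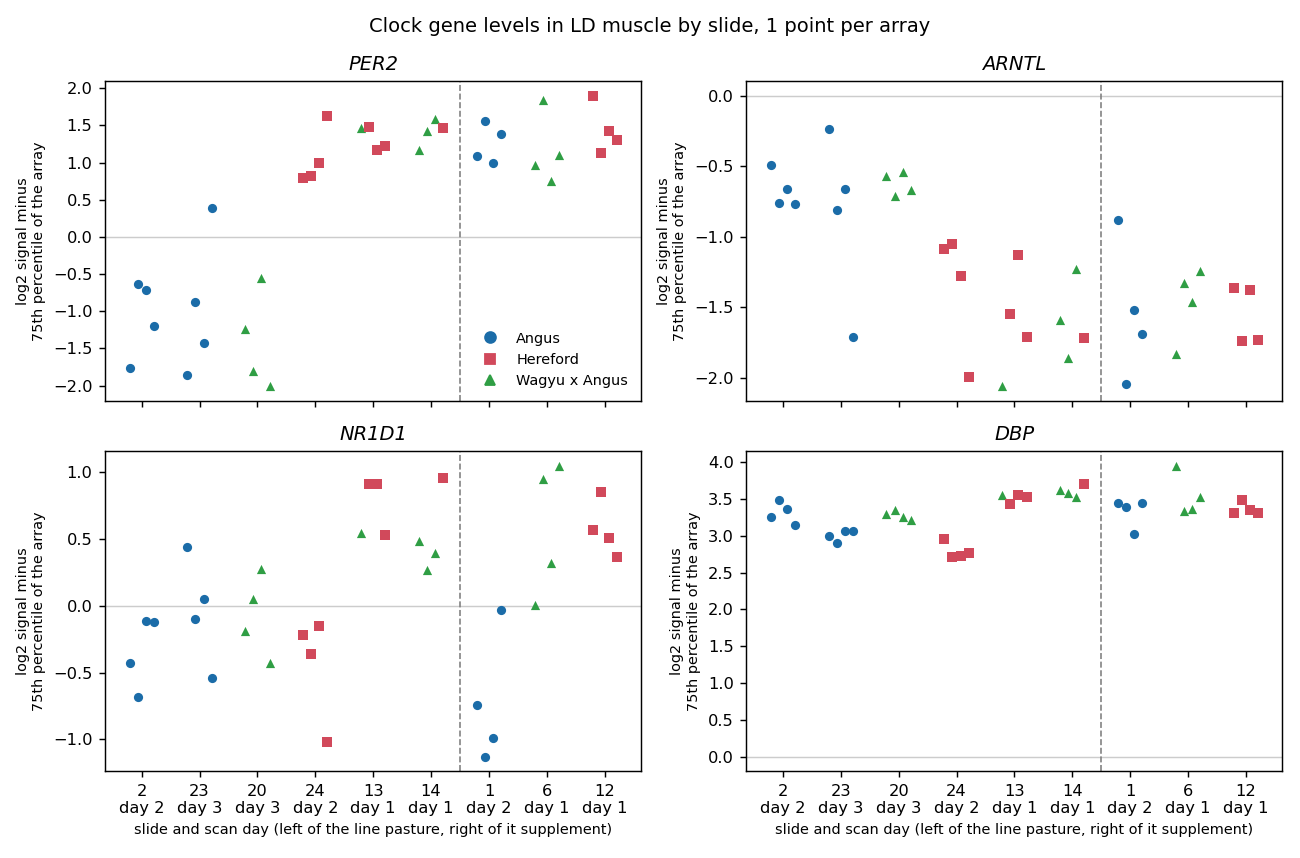
Levels of the clock genes in LD (log2 signal relative to the array's 75th percentile, y axis) by slide and scan day (x axis), with 1 point per array coloured by breed, pasture slides left of the dashed line and supplement slides right of it. PER2 is below 0 on 11 arrays of slides 2, 20 and 23, where ARNTL has slide means of -0.67, -0.62 and -0.86.

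The supplement animals' mean PER2 level was 1.29 (SD 0.35, n = 12) against 0.06 (SD 1.34, n = 24) on pasture, a 2.34-fold difference of 1.22 ± 0.32 (adjusted p = 0.0116). The ranges, 0.75 to 1.90 and -2.01 to 1.62, overlapped. The other PER2 probes differed by 1.35 (adjusted p = 0.00475) and 1.48 (adjusted p = 0.0126). They were dimmer, and well above background on 19 and 16 of the 24 pasture arrays, beside all 12 supplement arrays. Part of their pasture levels thus lay near background, which makes the size of these differences uncertain. PER2 was the only one of the 5 genes called for diet, against 11.2% of all probes. By breed, the difference was 2.27 ± 0.35 in Angus (adjusted p = 0.00717), 1.16 ± 0.74 in Wagyu x Angus (adjusted p = 0.409) and 0.25 ± 0.19 in Hereford (adjusted p = 0.404), and a difference between the breeds was not called (adjusted p = 0.116). Within the first scan day, which held 8 arrays of each diet from Hereford and Wagyu x Angus, it was -0.07 ± 0.15 (adjusted p = 0.797). The second scan day held both diets only in Angus, so its value of 2.33 ± 0.26 (adjusted p = 0.0019) sets the 4 supplement arrays of slide 1, with a mean of 1.26, against the 4 pasture arrays of slide 2, with a mean of -1.08. With scan day as a block it was 0.61 ± 0.29 (adjusted p = 0.203) and with slide as a random block 1.22 ± 0.43 (adjusted p = 0.428). No slide held both diets, so diet and slide cannot be told apart, nor can diet and kill, which the labels do not give.

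**Figure D4:**
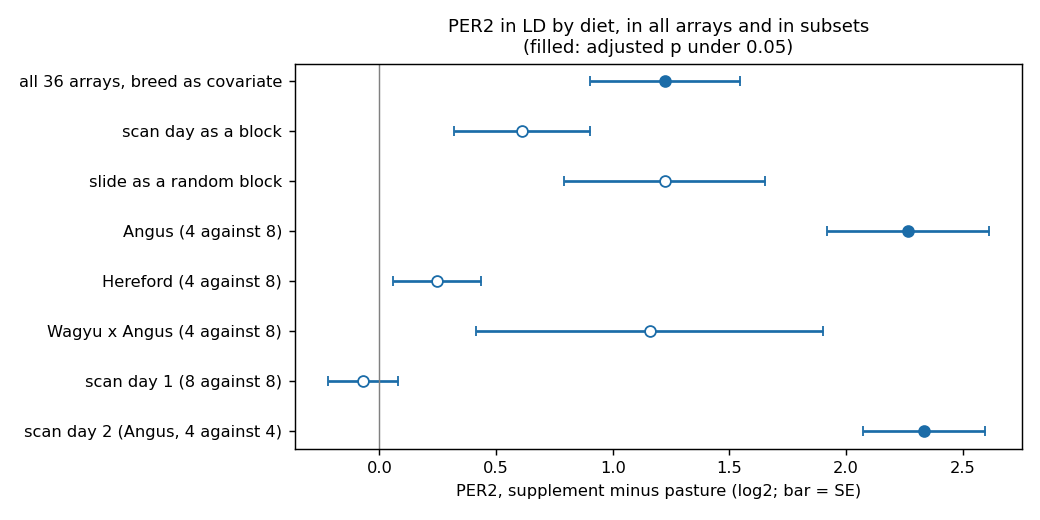
Difference in PER2 between supplement and pasture in LD (log2, x axis) over all arrays, with scan day or slide as a block, within each breed and within 2 scan days, of which the second compares Angus arrays (y axis), with bars for the SE and filled points for an adjusted p under 0.05. The estimate is 1.22 over all arrays, 2.33 within the second scan day and -0.07 within the first.

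Among the pasture LD arrays PER2 also differed between breeds (adjusted p = 0.0152), and it was the only one of the 5 brightest probes to do so, against 14.7% of all probes. The other PER2 probes were called too (adjusted p = 0.0301 and 0.0457), but were well above background on only 19 and 16 of these 24 arrays. The other DBP probe was also called (adjusted p = 0.00581), with its mean lowest in Angus at -2.32, next in Wagyu x Angus at -1.53 and highest in Hereford at -0.90. On the brightest PER2 probe, Hereford exceeded Angus by 2.20 ± 0.48 (adjusted p = 0.00833). There Wagyu x Angus, with a mean of 0.01, lay between Angus at -1.01 and Hereford at 1.20 and was called against neither. With scan day as a block the adjusted p for PER2 was 0.0943 and with slide as a random block 0.476, so this call was lost. Between slides of the same breed on pasture, 4 of the 5 genes differed, against 56.9% of all probes: DBP (adjusted p = 1.36e-06), PER2 (adjusted p = 0.000142), NR1D1 (adjusted p = 0.000487) and ARNTL (adjusted p = 0.0177). CRY1 was the exception (adjusted p = 0.505).

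ARNTL in LD ran the other way to PER2 from slide to slide. Its slide means were -0.67 on slide 2, -0.86 on slide 23 and -0.62 on slide 20, where PER2 was low, and -1.35 on slide 24, -1.46 for Hereford on slide 13 and -1.56 for Wagyu x Angus on slide 14, where PER2 was high. On the supplement slides, all with high PER2, ARNTL had means of -1.53, -1.47 and -1.55. Array by array, the 11 LD arrays with PER2 below 0 had ARNTL levels from -0.81 to -0.24, and every other LD array was at -0.88 or below. The 1 array of slide 23 with PER2 above 0, at 0.39, was also the one with the lowest ARNTL on that slide, at -1.71. Between diets ARNTL differed by -0.40 ± 0.15 (adjusted p = 0.0903), with -2.06 to -0.24 on pasture and -2.04 to -0.88 on supplement, and it was not called. Leaving out the Wagyu x Angus pasture array on slide 13 brought the adjusted p to 0.0452. The difference between Hereford and Angus on pasture was -0.68 ± 0.23 (adjusted p = 0.0646).

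NR1D1, DBP and CRY1 were not called between the diets. NR1D1 had a mean of 0.06 (SD 0.52) on pasture and 0.15 (SD 0.75) on supplement, a difference of 0.08 ± 0.18 (adjusted p = 0.815) with a 95% interval from -0.28 to 0.45. The slide means of this probe, the brighter of its 2, divided by scan day. On the first scan day they were 0.57 and 0.58 on the Hereford and Wagyu x Angus supplement slides and 0.72 and 0.53 on pasture slides 13 and 14. On the second day they were -0.72 on the Angus supplement slide, -0.34 on slide 2 and -0.44 on slide 24, and on the third -0.07 on slide 20 and -0.04 on slide 23. PER2 was high on the slides of the first day too, but also on the Angus supplement slide and slide 24, where this NR1D1 probe was lowest. The dimmer probe did not divide by scan day, since its mean on slide 13 of the first day, -2.82, lay below -2.62 on slide 2 and -2.69 on slide 20. DBP was 3.25 (SD 0.30) on pasture and 3.41 (SD 0.21) on supplement, a difference of 0.16 ± 0.09 (adjusted p = 0.288), although its other probe differed by 0.55 (adjusted p = 0.0416). CRY1 was 0.48 (SD 0.24) on pasture and 0.54 (SD 0.28) on supplement, and its difference of 0.06 ± 0.09 (adjusted p = 0.696) had a 95% interval from -0.11 to 0.24. For the difference of the diet effect between breeds, which called 16.2% of all probes, none of the 5 brightest probes was called.

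Composition moved with slide and diet in LD as well. The summed skeletal muscle markers were between 11.9 and 12.1 on slides 2, 20 and 23, where PER2 was low, and between 12.2 and 12.4 on slides 13 and 14, but reached down to 11.8 on the Angus supplement slide and to 12 on slide 24, where PER2 was high. Of the adipocyte markers, 3 of 9 were lower on supplement and none higher, beside 5.53% and 5.69% of all probes, with differences of -2.0 for CIDEC, -1.63 for ADIPOQ and -1.58 for PLIN1. Of 4 endothelium markers with a probe, 3 were higher and none lower, KDR by 0.56, CDH5 by 0.54 and PECAM1 by 0.37, and of 11 skeletal muscle markers 3 were higher and none lower, ACTN3 by 0.44, ACTA1 by 0.23 and CKM by 0.21. With slide as a random block only 1 of all 34227 probes was called for diet, so at most 1 of these calls holds there. The share of probes well above background was 71.1% to 81.1% on slides 2, 20 and 23 and 66.3% to 77.2% on slides 13, 14 and 24. Their part in the PER2 difference was not tested.

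The level of ARNTL was set against that of each of the other 4 genes from array to array, in LD and in fat, which makes 8 relations. Because several of the genes differed between slides of 1 group in LD, the values in LD are those within slides of the same group, over 34 arrays, with permutations within slide and group. ARNTL rose with CRY1 in LD, with Pearson's r = 0.517 (permutation p = 0.00769, adjusted 0.0365) and Spearman's rho = 0.514 (permutation p = 0.00621, adjusted 0.049), and r was 0.583 without the 2 arrays farthest from the median of ARNTL. In deviations from the group means alone, over 36 arrays, r with CRY1 was 0.455 and rho 0.457. It also rose with NR1D1, with r = 0.556 (permutation p = 0.00913, adjusted 0.0365) and rho = 0.483 (permutation p = 0.0123, adjusted 0.049), and r was 0.41 without the 2 farthest arrays. In deviations from the group means alone there was no such relation with NR1D1, with r = 0.00821 (permutation p = 0.962, adjusted 0.962) and rho = -0.101 (permutation p = 0.578, adjusted 0.661), and r was 0.0837, 0.261 and 0.179 within the scan days.

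ARNTL and PER2 ran opposite to each other between LD slides. In deviations from the group means over 36 arrays r was -0.731 (permutation p = 0.00012, adjusted 0.00096) and rho -0.682 (permutation p = 0.00025, adjusted 0.002). Within the 3 scan days r was -0.525, -0.673 and -0.859. The PER2 levels fell into clusters by slide, and each day held several slides. All of these values therefore carry the differences between slides, which those permutations ignored. Within slides r was -0.48 (permutation p = 0.0291, adjusted 0.0775) and rho -0.248 (permutation p = 0.191, adjusted 0.305), so the relation did not pass the test there, and r was -0.216 without the 2 farthest arrays. With DBP in LD r was -0.178 (permutation p = 0.376, adjusted 0.429) and rho -0.209 (permutation p = 0.289, adjusted 0.385).

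The fat arrays of different depots share steers, which the permutations did not take into account, so the p-values in fat may be too small. In the 60 fat arrays, taken as deviations from the group means, ARNTL rose with CRY1, with r = 0.404 (permutation p = 0.00046, adjusted 0.00184) and rho = 0.473 (permutation p = 0.00063, adjusted 0.00252). Without the 2 farthest arrays r was 0.405, and within the 3 scan days it was 0.462, 0.289 and 0.465. Within slides of the same group, over 37 arrays, r was 0.357 (permutation p = 0.0685, adjusted 0.136) and the relation did not pass the test. With NR1D1 in fat r was 0.501 (permutation p = 0.0189, adjusted 0.0378) but rho was 0.224 (permutation p = 0.143, adjusted 0.229), and r fell to 0.206 without the 2 farthest arrays, so the relation rests on those arrays. With PER2 in fat r was 0.34 (permutation p = 0.171, adjusted 0.227) and rho 0.099 (permutation p = 0.521, adjusted 0.661), and with DBP r was -0.02 (permutation p = 0.906, adjusted 0.962) and rho -0.06 (permutation p = 0.698, adjusted 0.698).

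**Figure D5:**
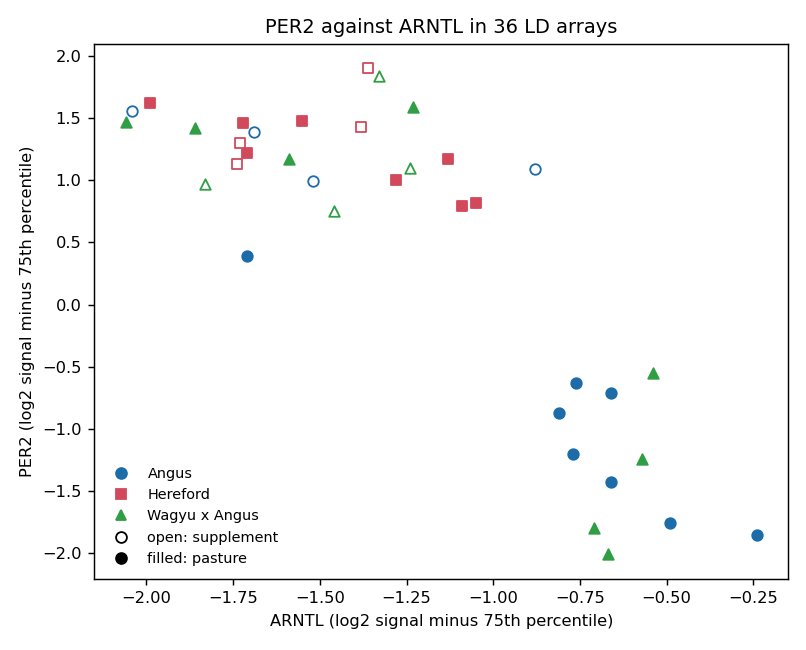
PER2 level (y axis) against ARNTL level (x axis), both as log2 signal relative to the array's 75th percentile, with 1 point per array for the 36 LD arrays, coloured by breed and filled for pasture. The 11 arrays with PER2 below 0 have ARNTL levels of -0.81 to -0.24, and all others lie at -0.88 or below.

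The other genes of the clock and its outputs, a list of 28 with a probe for 21, were not all shifted 1 way in any comparison of depots, and were called at shares to be read against those of all probes. Of the 21, 5 were higher and 4 lower in IMF than in SC, beside 31.1% of all probes higher and 33% lower. In intermuscular fat 5 were higher and 6 lower (21.5% and 27.3% of all probes), in kidney fat 5 higher and 9 lower (19.3% and 22.4%), and in omental fat 7 higher and 5 lower (20.5% and 25.3%). The median difference of the list was 0.04 in IMF, -0.06 in intermuscular fat, -0.21 in kidney fat and 0.04 in omental fat, beside 0.00, -0.05, -0.01 and -0.03 over all probes. USP2, a deubiquitinase with strongly rhythmic transcript, was 3.40 ± 0.27 higher in IMF than in SC (adjusted p = 1.21e-10) and 5.34 ± 0.14 higher in LD (adjusted p = 1.05e-29). NAMPT, which makes the NAD precursor and is a clock target, was higher by 1.89 in IMF and 3.16 in LD. Both were in the direction of CRY1 and of the muscle markers.

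In the depots where NR1D1 was lower, a few other clock outputs moved with or against it. HLF, a transcription factor of the same family as DBP, was lower than in SC, with differences of -0.76 ± 0.16 in intermuscular fat (adjusted p = 0.000514) and -1.27 ± 0.19 in kidney fat (adjusted p = 1.14e-05). BHLHE41, a repressor that competes at the activator's binding sites, differed by -0.84 in intermuscular, -0.95 in kidney and -1.13 in omental fat. NOCT, which encodes the rhythmic protein nocturnin, was higher by 1.26, 1.20 and 2.02 in the same depots, and BHLHE40, the relative of BHLHE41, by 1.34 in omental fat. In LD, 3 of the 21 genes were higher on supplement and none lower, beside 5.69% and 5.53% of all probes: BHLHE40 by 0.76 ± 0.25 (adjusted p = 0.0405), GSK3B, a kinase acting on clock proteins, by 0.20, and NONO, which binds PER proteins, by 0.13. With slide as a random block, which left 1 called probe of 34227, at most 1 of these calls holds. Of the 21, 13 differed between slides of 1 breed on pasture, a share near the 56.9% of all probes.

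Genes that glucocorticoids induce, 10 of 10 with a probe, were called for 4 higher and 1 lower in IMF than in SC (31.1% and 33% of all probes), 6 higher and 1 lower in intermuscular fat (21.5% and 27.3%), 5 higher and 1 lower in kidney fat (19.3% and 22.4%), and 8 higher and none lower in omental fat (20.5% and 25.3%). The list medians were 0.25, 0.38, 0.41 and 0.79, beside 0.00, -0.05, -0.01 and -0.03 over all probes. TSC22D3, also known as GILZ, was higher by 1.04 in IMF, 1.25 in intermuscular and 1.11 in kidney fat, and KLF15, a transcription factor of amino acid and lipid metabolism, by 0.94, 0.85 and 0.98. CEBPD, a transcription factor of adipocyte differentiation, was lower in IMF, with a difference of -0.80 (adjusted p = 3.14e-05). SGK1, a kinase, was higher by 1.5 in kidney and 1.10 in omental fat, DUSP1, a phosphatase of MAP kinases, by 0.71 in intermuscular and 1.04 in omental fat, and ERRFI1, an inhibitor of the EGF receptor, by 1.73 in omental fat. In deviations from group means over 96 arrays, the 5 genes with the lowest correlation with NR1D1 included SGK1, at r = -0.65. The others were VASP (-0.653), PLSCR2 (-0.639), EPSTI1 (-0.637) and CD47 (-0.619), none of which is on this list. In LD, 2 of the 10 were lower on supplement and none higher (5.53% and 5.69% of all probes), with differences of -0.46 for TSC22D3 and -0.31 for KLF9, and at most 1 of these calls holds with slide as a random block.

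The genes whose pattern was most like that of a clock gene were ranked by Pearson's r of deviations from the group means over 96 arrays, among 10652 other genes, as a description of arrays that share slides. For ARNTL, ZFAND6 (r = 0.64), MSL1 (0.56), KDM3A (0.53) and BBS4 (0.53) were among the closest, and the most opposite were RRM2 (-0.63), TOP2A (-0.60) and IRF7 (-0.60). RRM2, a subunit of ribonucleotide reductase, and TOP2A, a DNA topoisomerase, are both known as genes of dividing cells. For NR1D1 the closest were NFIX (0.72), STIM1 (0.65), PRKCSH (0.60), TTC23 (0.59) and THAP11 (0.59). For PER2, ranked after its levels had been seen, they were VEGFA (0.63), C1H21ORF7 (0.60), DNAJB5 (0.59), RBAK (0.58) and PNMT (0.53). VEGFA encodes a growth factor of blood vessels, and its correlation with PER2 was 0.76 in the LD arrays and 0.58 in the fat arrays. The LD value carries the differences of PER2 between slides, and the relation was not tested within slides.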

How the data were processed

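RNA was hybridised to 96 Agilent bovine 1-colour arrays on 24 slides of 4. The scanner files deposited by the authors hold the background-corrected intensity of each spot (Feature Extraction, per the file headers). The authors' deposited value table holds log2 of the median spot intensity minus the median local background, averaged by probe and not scaled between arrays: 3285792 of 3285792 values were recomputed within 0.0001. The number of arrays limits the precision.

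Here, control and outlier-flagged spots were left out, spots of a probe were averaged, and log2 intensity was taken relative to each array's 75th percentile. Of 34227 probes, 21445 (62.7%) were named, 19903 by accession in a RefSeq gene table and 4439 from the study's probe tables. The 2752 of 2897 named alike by both sources show how far they match. Where a gene had several probes, the brightest over all arrays stood for it.

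Differences were tested two-sided in limma 3.58.1 under R 4.3.3, through lmFit and then eBayes, with p-values adjusted by Benjamini-Hochberg over all 34227 probes. The labels name no animal, so p-values measure only the spread between these samples, which may be partly technical. Depot comparisons used the arrays of both tissues, LD being represented by its 24 pasture arrays. The diet comparison used the 36 LD arrays with breed as a covariate, and the breed comparison over fat had depot as a covariate. Correlations used 100000 permutations within groups and, on deviations from the slide means of a group, within slides, the latter p-values added after the data were seen (numpy 2.4.6), each adjusted over the 8 relations. The pipeline was also run on data simulated with known changes, for IMF against SC and other comparisons, with noise independent between arrays. What it recovered is not reported here. Replicate numbers in the labels follow the position on a slide: of 35 same-numbered pairs of samples, 7 deviated together with r over 0.1, so they share only a number. The genes named from lists were the 3 called genes with the largest change per list and comparison.

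Alternatives were quantile normalisation, centring on the mean, normexp (offset 50), the authors' table, a filter on dim probes, all probes, slide or scan day as a block, the replicate number as a block, each breed alone, the mean of all probes of a gene, and each array left out in turn. The clock genes, the lists and the tests were chosen with earlier results of these data known. No sequences or coordinates are given for the probes.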

Additional observations from a re-analysis of the deposited data

Results flagged for a closer look

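In 5 of 105 sets of 1 gene in 1 group (4.76%), 1 array lay far from the others, where chance gives about 1 in 20. DBP in the Angus supplement LD arrays was 3.02 on slide 1, position 3, against 3.39 for the nearest and 3.45 for the highest, a gap of 0.858 of the group's range. ARNTL in the Angus pasture LD arrays was -1.71 on slide 23, position 4, where the nearest was -0.81 and the highest -0.24 (0.612 of the range, 8 arrays). That array also had the highest PER2 level of its group, 0.39. ARNTL in Hereford intermuscular fat was -1.41 on slide 10, position 1, where the nearest was -1.09 and the highest -1.04 (0.865 of the range). In Angus IMF, PER2 was -1.14 on slide 8, position 1, where the nearest was -0.17 and the highest -0.12 (0.944 of the range). In Wagyu x Angus IMF, ARNTL was -1.17 on slide 8, position 3, where the nearest was -1.32 and the lowest -1.35 (0.83 of the range).

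The effect of supplement in LD differed between breeds for the dimmer NR1D1 probe, with an adjusted p of 0.0474 in limma's interaction test over all probes. The brighter NR1D1 probe had an adjusted p of 0.144 in the same test.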

How the results depend on the processing

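Of the alternatives tried for single clock genes, 980 kept their side of the threshold. These include uncalled values that changed sign, and F tests, which have no direction. A further 17 moved into and 33 out of significance, and 5 changed direction where the main or the alternative value was called. Those 5 were DBP under quantile normalisation (LD minus IMF: DBP -0.0325; LD minus SC: DBP -0.34), ARNTL with scan day as a block over 96 arrays (IMF minus SC: ARNTL -0.46; Omen minus SC, omental fat: ARNTL -0.46) and PER2 within scan day 1 (supplement minus pasture in LD: PER2 -0.0701). The cause was not tested. Normexp moved the median difference of all probes by -0.23 in IMF, -0.23 in intermuscular, -0.24 in kidney and -0.23 in omental fat and by 0.31 in LD minus IMF, mean centring by -0.13 in IMF and quantile normalisation by 0.11 in LD minus IMF. Under normexp the called probes numbered 21429 for Kid minus SC (kidney fat; 14261 as reported), 690 for breed over the fat arrays (1091), 5 for depot by breed over the fat arrays (0, and 2 with all non-control probes), 1147 for supplement minus pasture in LD (3840), 1149 for diet by breed in LD (5530), 2399 for breed in LD on pasture (5034) and 7698 for slide within breed in LD on pasture (19462). For supplement minus pasture in LD, 1 probe and 0 of 5 clock genes were called with slide as a random block, 2295 and 0 with scan day as a block, 2461 probes without breed as a covariate, 2092 within scan day 2 (Angus), and 0 clock genes within scan day 1. For breed in LD on pasture, 0 probes and 0 clock genes were called with slide as a random block (3373 probes had an unadjusted p under 0.05) and 0 clock genes with scan day as a block. Within Angus, with fewer arrays, the calls were 1780 probes for diet, 14233 and 1 clock gene for IMF minus SC, 2746 and 0 for Inter minus SC (intermuscular), 4488 and 1 for Kid minus SC and 1436 and 1 for Omen minus SC. Within Hereford they were 2281 and 0, 13328 and 1, 6548 probes, 1215 and 1, and 4408 and 1, and within Wagyu x Angus 1195 and 0, 11382 and 1, 4362 and 1, 5094 and 1, and 8327 and 1. Leaving out each array in turn, supplement minus pasture in LD called 1 to 2 clock genes (2 without the Wagyu x Angus pasture array on slide 13, position 1) and 2858 to 4684 probes. Breed over the fat arrays called 1 without the Hereford kidney array on slide 21, position 1, left out after the data were seen, as was the choice of single scan days. With the mean of a gene's probes, the diet, diet by breed and breed comparisons in LD called 2, 1 and 2 clock genes. The replicate number as a block gave 3620 probes for diet (PER2 adjusted p = 0.0171), 21576 for IMF, 16531 for intermuscular, 14530 for kidney and 15401 for omental fat, and changed no call of a clock gene; of 35 same-numbered pairs, 8 correlated best with their own number. The methods' t-test, which came with no stated threshold, called 22990 probes for IMF minus SC at an unadjusted p under 0.05 and 21956 after Benjamini-Hochberg adjustment.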
